A study of Mus musculus with 9 samples.

Results

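Genes that mark B cells and plasma cells were read in mouse liver RNA. They are Cd79a, Cd79b, Ms4a1, Cd22, Pou2af1, Mzb1 and Jchain. They were taken by gene symbol from the count table, where all 7 were found among 24008 listed genes, and all 7 had enough counts to be tested. Liver was taken from mice with nonalcoholic steatohepatitis (NASH), with 3 libraries in each of 3 groups and replicates numbered 1 to 3. All groups were fed the study's NASH diet, high in fat and carbohydrate, with cholesterol and a fructose-glucose drink. A starting age of 8 weeks is stated in the methods for wild-type mice and not for these groups. The methods give the length of the diet as 24 weeks in one place and 12 weeks in another, and collection came 4 weeks after the virus. The Flox group, labelled WT, kept Irf4 in muscle. F4MKO mice lacked IRF4, an interferon regulatory factor, in skeletal muscle through a muscle-driven Cre, so the deletion was directed to muscle and not to liver or blood cells. F4MKO + FSTL1 mice carried the same deletion and also received the secreted protein FSTL1 from an adeno-associated virus with a muscle promoter, injected into the gastrocnemius. The methods place a GFP virus in both other groups, while the labels name no vector for them, and the labels do not state that the replicates are separate animals.

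B cells recognise antigen through a surface antibody that signals by way of the paired chains CD79A and CD79B. Co-receptors set the strength of that signal, and CD22, which binds sialic acid-bearing ligands, damps it by recruiting phosphatases. After activation, B cells can become plasma cells, which lose most receptor components and devote the endoplasmic reticulum to assembling and secreting antibody. Healthy liver holds few B cells, and in steatohepatitis they can gather in the portal tracts and lobules together with other immune cells.

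The antibody genes Ighm, Igkc and Igha would mark these cells most directly. They and all other immunoglobulin constant and variable genes were not found by symbol among the listed genes, so they were not analysed here. Pax5, the transcription factor that holds B cell identity, had between 2 and 12 counts in every library, too few to be tested. Its counts were 4, 5 and 8 in Flox, 6, 2 and 11 in F4MKO, and 6, 4 and 12 in F4MKO + FSTL1. The groups overlapped, and unlike the fitted levels of the members, these counts were not lower in F4MKO + FSTL1. Tnfrsf17, the plasma cell survival receptor, had 0 to 2 counts. Pax5 was thus present at low counts in all 9 libraries, and of plasma cells this defining receptor was at or near 0.

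The members lay on different chromosomes except for Cd79a and Cd22, which are both on chromosome 7. In GRCm38 coordinates with GENCODE vM21 genes, Cd79a spans chr7:24897381-24902197 on the plus strand and Cd22 spans chr7:30865402-30880342 on the minus strand. The following stretches of 30 bases hold the matches to 2 short motifs, E-box and ETS core, that many other promoters also hold. These matches were found before the RefSeq start sites of these 2 receptor genes (GRCm38.p6), and the motif is in capitals.
Cd79a E-box, chr7:24897331-24897360, plus strand: ttgtggccagccCAGGTGcagggcagttcc
Cd79a ETS core, chr7:24897431-24897460, plus strand: cacggctgaacaGGAAGTgaggcggagttt
Cd22 E-box, chr7:30879249-30879278, minus strand: ccctaCACCTGttcctggtcacccagaagt
The motifs searched on both strands in the 250 bases before each start were an octamer (ATGCAAAT), the sequence bound by the POU factors that POU2AF1 works with, an E-box (CAGGTG) and an ETS core (GGAAGT). Promoters of 4 members were matched, Cd79a and Cd22 among them. The octamer was in 0 of these 4 windows and in 1.6% of 32851 promoters, the E-box in 2 of 4 and in 17.2% of all, and the ETS core in 1 of 4 and in 19.7% of all. GENCODE also annotates longer Cd22 transcripts that start upstream of this RefSeq start, so the Cd22 window lies inside the annotated gene. The Cd79a ETS core stretch lies inside the annotated Cd79a gene in the same way, since GENCODE starts that gene at 24897381, and both it and the Cd22 stretch overlap annotated untranslated exon sequence.

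All members were scarce. Library totals ran from 20656976 to 24322984 counts, and the 7 members together took 157 to 495 of them, with 4 to 152 counts for a single member in a library. At such depth counting error is large: the 17 counts of Cd79b in F4MKO replicate 2 have an exact Poisson 95% interval of 9.9 to 27.2, which covers counting error only. Per length, as TPM (transcripts scaled to a fixed total after division by exon length) averaged over the 9 libraries, the order was Jchain (4.10 ± 1.66), Cd79a (3.43 ± 1.29), Cd79b (3.10 ± 1.73), Cd22 (1.79 ± 0.897), Mzb1 (1.20 ± 0.368), Pou2af1 (0.712 ± 0.333) and Ms4a1 (0.299 ± 0.164; SD, n = 9). From Jchain down to Mzb1 each pair of neighbours differed by less than the larger of their SDs, which include the differences between groups, while Pou2af1 was below Mzb1 and Ms4a1 below Pou2af1 by more than that. Because the RNA came from whole tissue, fewer cells of a type and less RNA per cell cannot be told apart.

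Cd79a encodes one signalling chain of the B cell receptor. In CPM, the count scaled by the normalized library size, it stood at 2.27, 2.05 and 2.17 in the Flox libraries, 1.66, 1.63 and 2.91 in F4MKO, and 0.934, 0.769 and 2.04 in F4MKO + FSTL1. The Flox libraries lay close together, F4MKO replicate 3 was above all of them, and F4MKO + FSTL1 replicate 3 was 2.65-fold above the lowest library of its group and just below the Flox range.

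Cd79b (chr11:106311341-106314762, minus strand) encodes the partner chain. It stood at 1.69, 1.48 and 2.35 CPM in Flox, 1.31, 0.712 and 3.47 in F4MKO, and 0.701, 0.817 and 2.25 in F4MKO + FSTL1. Replicate 3 was the highest library of every group, and within F4MKO the highest library exceeded the lowest 4.88-fold. Those F4MKO libraries held 17 counts (9.9 to 27.2) and 87 counts (69.7 to 107), so the gap between libraries of one group was larger than counting error. The ratio of Cd79a to Cd79b per length ran from 0.824 to 2.25, and the highest ratio was in F4MKO replicate 2, where Cd79b was low.

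Ms4a1 (chr19:11249675-11266241, minus strand) encodes CD20, a membrane protein of mature B cells. Its level was 0.758, 0.901 and 1.15 CPM in Flox, 0.672, 0.251 and 1.20 in F4MKO, and 0.234, 0.336 and 0.575 in F4MKO + FSTL1. All 3 F4MKO + FSTL1 libraries were below all 3 Flox libraries, while F4MKO spanned nearly the whole range of the series, with 6 counts in replicate 2 and 30 in replicate 3.

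Cd22 encodes the inhibitory co-receptor. Its 64, 64 and 93 counts in Flox corresponded to 2.85, 2.62 and 4.13 CPM, its 152, 91 and 109 counts in F4MKO to 5.38, 3.81 and 4.35 CPM, and its 36, 34 and 47 counts in F4MKO + FSTL1 to 1.68, 1.63 and 2.46 CPM. The F4MKO + FSTL1 libraries were the 3 lowest of the 9, below every Flox and every F4MKO library, whereas Flox replicate 3 lay inside the F4MKO range. Unlike Cd79b and Ms4a1, Cd22 was highest in replicate 1 of F4MKO, and its highest and lowest F4MKO libraries differed only 1.41-fold.

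Pou2af1 (chr9:51213708-51240080, plus strand) encodes a coactivator of octamer-binding factors needed for germinal centre responses. It stood at 0.535, 0.738 and 1.15 CPM in Flox, 0.601, 0.377 and 1.16 in F4MKO, and 0.514, 0.288 and 0.627 in F4MKO + FSTL1. As with both Cd79b and Ms4a1, replicate 3 was the highest in each group, and all 3 groups overlapped.

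Jchain (chr5:88519809-88527891, minus strand) encodes the peptide that joins antibody units into polymeric IgA and IgM. It stood at 3.57, 1.80 and 5.99 CPM in Flox, 2.41, 4.86 and 5.99 in F4MKO, and 2.66, 3.94 and 3.08 in F4MKO + FSTL1. The spread within Flox alone was 3.32-fold, and the F4MKO + FSTL1 libraries lay inside the range of both other groups. Mzb1 (chr18:35647267-35649367, minus strand), an endoplasmic reticulum protein that assists antibody assembly, had 4 to 17 counts per library. Its level was 0.669, 0.410 and 0.621 CPM in Flox, 0.424, 0.670 and 0.679 in F4MKO, and 0.607, 0.529 and 0.209 in F4MKO + FSTL1. F4MKO + FSTL1 replicate 3, with 4 Mzb1 counts (1.09 to 10.2), was the lowest library for Mzb1 and the highest of its group for Cd79a, Cd79b, Ms4a1, Cd22 and Pou2af1.

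**Figure D1:**
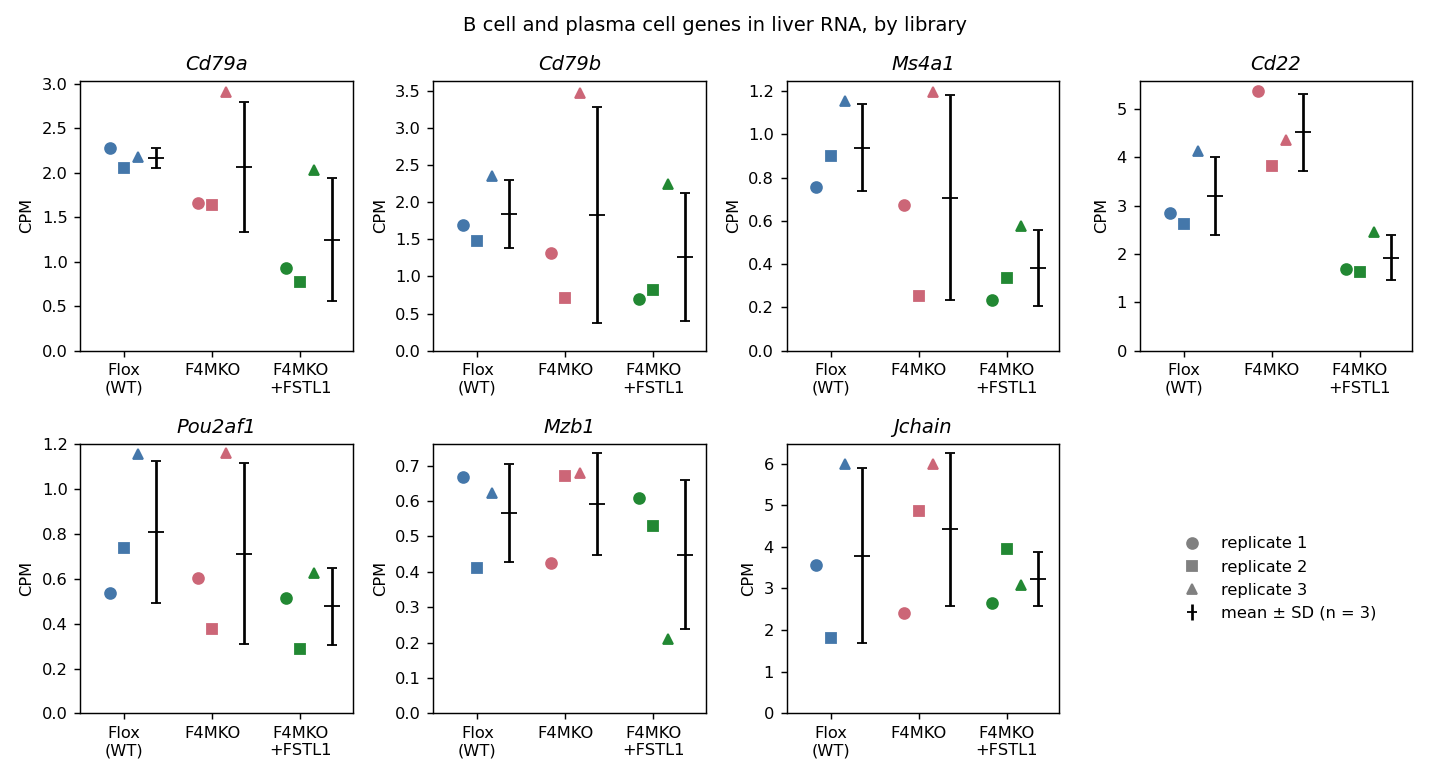
Level of each member in CPM (vertical axes from 0, one panel per gene) in the Flox, F4MKO and F4MKO + FSTL1 libraries; symbols give the replicate number and bars the mean ± SD of 3 libraries. Cd22 is lowest in the 3 F4MKO + FSTL1 libraries (1.63 to 2.46 CPM), and replicate 3 of each group is highest for Cd79b, Ms4a1 and Pou2af1.

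The first comparison asked how loss of IRF4 in muscle related to these transcripts in the liver. No member passed the test between F4MKO and Flox. Counts were fitted with edgeR's quasi-likelihood test over 14379 genes, and a gene was called at a Benjamini-Hochberg adjusted p under 0.05 with a fold change above 1.5. With these rules 0 of 7 members were called, where 0.271% of all tested genes were (39 genes). An unadjusted p under 0.05 was found for 0 of 7 members and for 2424 of the 14379 genes. DESeq2 called 0 of 7 members and 338 of all genes. The groups overlapped for all 7 members, whereas 21.8% of all genes did not overlap. The fit placed 4 members lower and 3 higher, with a median log2 fold change of -0.005, and the median of all genes was -0.003.

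The largest fitted difference in that comparison was that of Cd22, which averaged 4.51 ± 0.795 CPM in F4MKO and 3.20 ± 0.810 in Flox (SD, n = 3; log2 fold change 0.50, SE 0.23, adjusted p = 0.306). For Ms4a1 the fitted difference was -0.40 on the log2 scale (SE 0.46, adjusted p = 0.703). For Cd79a, Cd79b, Pou2af1 and Mzb1 the fitted log2 fold changes lay between -0.18 and 0.06, and for Jchain it was 0.22, with adjusted p from 0.819 to 0.997. Standard errors of 0.23 to 0.53 mean that differences of a size near the called fold change were not detectable for most of these genes. Without F4MKO replicate 3, the log2 fold change of Cd79b moved from -0.005 to -0.85 and that of Ms4a1 from -0.40 to -0.98, and neither was called. Without F4MKO replicate 2, Ms4a1 was at -0.015 and Cd79b at 0.37.

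The second comparison asked what followed when FSTL1 was supplied to the muscle of F4MKO mice. Cd22 was lower in F4MKO + FSTL1 (1.92 ± 0.461 CPM) than in F4MKO (4.51 ± 0.795 CPM; SD, n = 3), a fall of 2.35-fold, and it was the one member that passed the test (log2 fold change -1.24, SE 0.25, adjusted p = 0.00595). The groups did not overlap for Cd22. Across all tested genes 14.4% were called, 11.2% were called lower, and 21.1% were lower without overlap, so the share of members called was close to that of all genes and the share without overlap was below it.

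All 7 members were fitted lower in F4MKO + FSTL1 than in F4MKO, with a median log2 fold change of -0.58 beside 0.01 for all genes, of which 48.6% were fitted lower. The members besides Cd22 were not called. Ms4a1 averaged 0.381 ± 0.175 CPM against 0.707 ± 0.474 (log2 fold change -0.90, SE 0.53, adjusted p = 0.252), and Cd79a 1.25 ± 0.689 against 2.07 ± 0.731 (log2 fold change -0.74, SE 0.36, adjusted p = 0.166). For Cd79b, Pou2af1, Jchain and Mzb1 the log2 fold changes were -0.56, -0.58, -0.45 and -0.37, with adjusted p from 0.42 to 0.561. In each of these 6 genes the libraries of the groups overlapped.

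The receptor genes turned on single libraries, and Cd22 did not. Leaving out each library in turn, the log2 fold change of Cd22 lay between -1.44 and -1.09, and it stayed called in all 15 alternative fits, with an adjusted p from 0.000192 to 0.0329. Without F4MKO + FSTL1 replicate 3, Cd79a reached -1.27 and was called (adjusted p = 0.0265). Without F4MKO replicate 3, Cd79a was at -0.41, Ms4a1 was at -0.32 and Cd79b turned to 0.28. Pou2af1 moved to -0.06 without the same F4MKO library, and Mzb1 to -0.04 without F4MKO + FSTL1 replicate 3. With replicates 1 and 2 of every group alone, a choice made after seeing the values, Cd22 was at -1.47 and remained called (adjusted p = 0.0125).

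**Figure D2:**
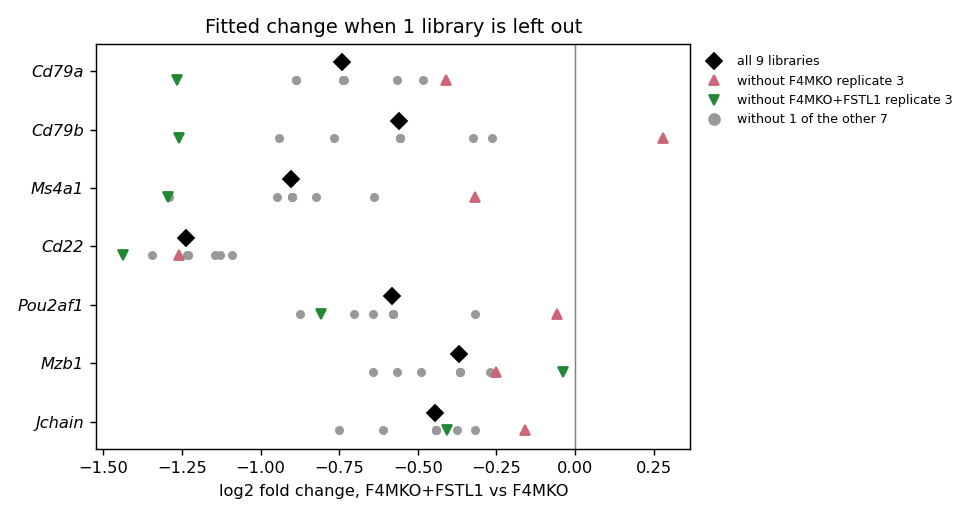
Log2 fold change of each member between F4MKO + FSTL1 and F4MKO (horizontal axis) with all 9 libraries (black diamonds) and with 1 library left out (other symbols). Cd22 stays between -1.44 and -1.09, while Cd79b crosses 0 to 0.28 without F4MKO replicate 3.

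A further comparison set F4MKO + FSTL1 against Flox, which the study's methods do not list. No member was called, by edgeR or by DESeq2, and 0.00695% of all genes were called by edgeR (1 gene). Of the members 3 had an unadjusted p under 0.05, all lower, where 9.12% of all genes had one with a lower level, and the same 3 did not overlap, where 10.7% of all genes were lower without overlap. They were Ms4a1 (0.381 ± 0.175 CPM against 0.938 ± 0.200 in Flox; log2 fold change -1.30, SE 0.52, adjusted p = 0.311), Cd79a (1.25 ± 0.689 against 2.17 ± 0.113; -0.81, SE 0.36, adjusted p = 0.363) and Cd22 (1.92 ± 0.461 against 3.20 ± 0.810; -0.74, SE 0.25, adjusted p = 0.233). That count of 3 rested on single libraries: it was 0 without Flox replicate 3 or without F4MKO + FSTL1 replicate 2, 1 without Flox replicate 2 or without F4MKO + FSTL1 replicate 1, and 2 without Flox replicate 1. For Cd79a the gap between groups was narrow, since F4MKO + FSTL1 replicate 3 stood at 2.04 CPM and Flox replicate 2 at 2.05. The other members had log2 fold changes of -0.76 for Pou2af1, -0.57 for Cd79b, -0.31 for Mzb1 and -0.23 for Jchain, with adjusted p from 0.559 to 0.888. Both comparisons of F4MKO + FSTL1 use the same 3 libraries, so their shared direction is not independent.

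**Figure D3:**
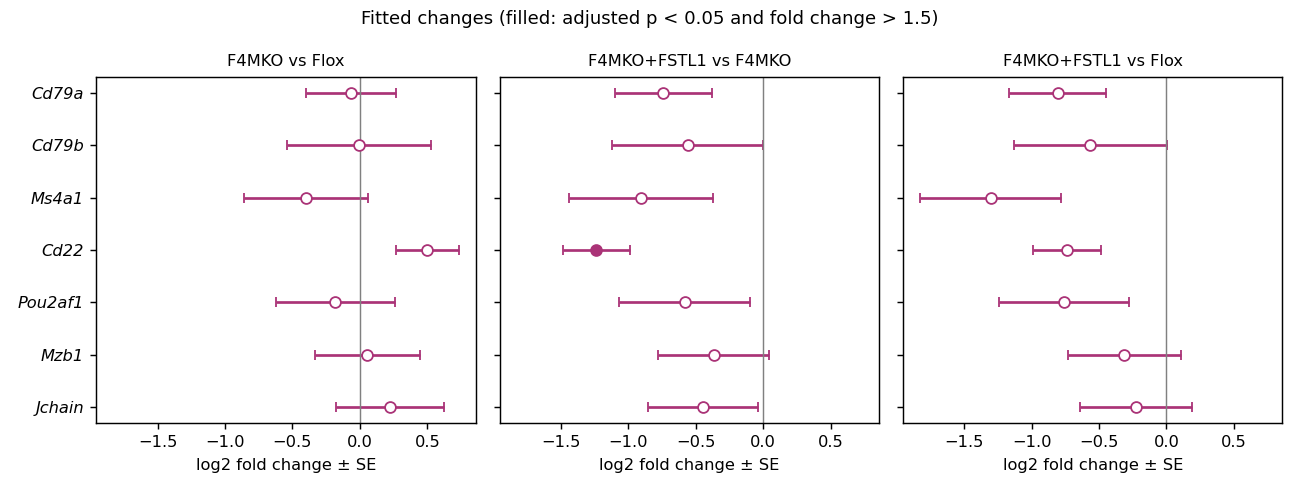
Fitted log2 fold changes ± SE of the 7 members (horizontal axes) in the 3 comparisons; filled points were called. Only Cd22 in F4MKO + FSTL1 against F4MKO is filled, at -1.24, and in that comparison and in F4MKO + FSTL1 against Flox all 7 points lie below 0.

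The receptor and surface members (Cd79a, Cd79b, Ms4a1 and Cd22) summed to 7.05 to 9.81 CPM in Flox, 6.41 to 11.9 in F4MKO and 3.55 to 7.31 in F4MKO + FSTL1. In F4MKO + FSTL1, replicates 1 and 2 were at 3.55 and 3.56, below every other library, and replicate 3 lay within the ranges of Flox and F4MKO. The secretory members (Jchain and Mzb1) summed to 2.21 to 6.61, 2.83 to 6.67 and 3.27 to 4.47 CPM, so that the F4MKO + FSTL1 range lay inside the other ranges.

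Genes around the B cell receptor were read from a list of 25, all of them tested. Between F4MKO + FSTL1 and F4MKO, 24 were fitted lower and 11 were called lower (11.2% of all genes were), with a median log2 fold change of -0.68. The 3 with the smallest adjusted p were Syk, the kinase that docks on the phosphorylated CD79 chains (-0.93, adjusted p = 0.00206), Inpp5d, the lipid phosphatase SHIP-1 (-1.03, adjusted p = 0.00218), and Blnk, the adaptor that links SYK to phospholipase C (-1.54, adjusted p = 0.00441). In F4MKO against Flox 0 of the 25 were called and 7 had an unadjusted p under 0.05, with a median of 0.29, and Blnk was fitted at 0.97 (adjusted p = 0.122). In F4MKO + FSTL1 against Flox 0 were called, 9 had an unadjusted p under 0.05 and the median was -0.45. Of all 14379 tested genes, 2424 had such a p in the first of these comparisons and 1924 in the other. Syk and Inpp5d are known to act in macrophages and other myeloid cells as well as in B cells.

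Of 13 B-lineage transcription factors 11 were tested, and Pax5 was not among them. In F4MKO + FSTL1 against F4MKO 8 were fitted lower and 3 higher, with a median of -0.82. Of the 11, 5 were called lower (Ebf1, Spib, Spi1, Ikzf1 and Irf8), where 11.2% of all genes were. The 3 fitted higher were Bcl6 (0.392), Bach2 (0.289) and Foxo1 (0.225), and 0 were called higher. Irf8 fell by 0.96 on the log2 scale (adjusted p = 0.00491), Spi1, the myeloid and B cell factor PU.1, fell by 0.95 (adjusted p = 0.00552), and Spib, its relative in B cells and plasmacytoid dendritic cells, fell by 1.43 (adjusted p = 0.017). Of 12 survival and homing genes 9 were tested, 7 fitted lower and 2 higher, with a median of -0.88. The 2 fitted higher were the chemokines Cxcl13 (0.839, adjusted p = 0.222) and Cxcl12 (0.164, adjusted p = 0.298). Among the 4 called lower were the chemokine receptor Cxcr4 (-1.71, adjusted p = 0.00239) and the lymphocyte cytokine receptor Il7r (-1.87, adjusted p = 0.0139). Another was Tnfsf13, the plasma cell survival factor APRIL (-1.54, adjusted p = 0.0181). Of 13 plasma cell and antibody secretion genes 12 were tested, and 1 was called lower: Slamf7, a surface receptor of plasma cells, natural killer cells and macrophages (-1.83, adjusted p = 0.00205). The median of those 12 was -0.08, and Xbp1, the secretory pathway factor that hepatocytes also use, was fitted at 0.39 (adjusted p = 0.125). In F4MKO against Flox and in F4MKO + FSTL1 against Flox, 0 genes of these 3 lists were called by edgeR, with 7 genes in each comparison at an unadjusted p under 0.05. Over all 14379 tested genes, 2424 and 1924 had such a p in the same comparisons.

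Irf4 itself is a plasma cell and B cell factor, and its deletion here was directed to muscle. Its liver counts were 131, 132 and 101 in Flox, 120, 128 and 130 in F4MKO, and 10, 92 and 116 in F4MKO + FSTL1. The library with 10 Irf4 counts, F4MKO + FSTL1 replicate 1, still held 57 Jchain and 13 Mzb1 counts, and it was the lowest of the series for Ms4a1 and Cd79b. Between F4MKO + FSTL1 and F4MKO, Irf4 was fitted at -0.44 on the log2 scale (adjusted p = 0.584). These liver counts therefore do not check the genotype.

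Markers of other cells moved beside the members. Ptprc, the common leukocyte antigen CD45, was called lower in F4MKO + FSTL1 than in F4MKO (log2 fold change -0.92, adjusted p = 0.0033), with 237, 179 and 240 counts against 686, 430 and 470, and it had 328, 366 and 388 in Flox. Of 10 macrophage markers 8 were fitted lower and 6 were called lower (Adgre1, Cd68, Csf1r, C1qa, C1qb and C1qc), where 11.2% of all genes were. Clec4f (-0.293, adjusted p = 0.358) and Vsig4 (-0.407, adjusted p = 0.396) were fitted lower and not called. The 2 fitted higher were Timd4 (0.506, adjusted p = 0.401) and Marco (0.080, adjusted p = 0.914). The summed level of the 10 was 353 to 549 CPM in F4MKO + FSTL1, 679 to 717 in F4MKO and 585 to 881 in Flox. Of 10 T cell markers 7 were tested, all fitted lower with 0 called. An unadjusted p under 0.05 was found for 2 of them, and for 5080 of all 14379 genes. The T cell sum was 2.99 to 7.10 CPM in F4MKO + FSTL1, 5.49 to 8.81 in F4MKO and 4.39 to 5.66 in Flox. The highest T cell sum in F4MKO + FSTL1 was in replicate 3, the library that was also highest of its group for the receptor members. Cd3e, a defining T cell gene with too few counts to be tested, had 2, 1 and 4 counts in F4MKO + FSTL1, 18, 12 and 9 in F4MKO and 4, 9 and 2 in Flox.

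Neutrophil markers had 5 of 8 genes tested, all fitted lower, with Csf3r called (-1.03, adjusted p = 0.00357) and a sum of 5.38 to 9.14 CPM in F4MKO + FSTL1 beside 12.4 to 17.5 in F4MKO and 9.28 to 10.6 in Flox. Plasmacytoid dendritic cell markers, whose cells share SPIB and some B-lineage genes, had 5 of 8 tested, all fitted lower and 2 called (Siglech and Runx2). Hepatocyte markers had 4 of 10 fitted lower and 1 called higher (Serpina1a), with a median of 0.03 and a sum of 102600 to 119600 CPM in F4MKO + FSTL1 beside 90040 to 123600 in F4MKO and 114900 to 122600 in Flox. Red blood cell markers had 5 of 6 tested, all fitted higher, with Alas2 called higher (0.62, adjusted p = 0.00566). In the comparisons with Flox, 0 genes of any of these marker lists were called by edgeR. In F4MKO + FSTL1 against Flox, where 1 gene of all was called, all 10 macrophage markers were fitted lower. Of these, 9 had an unadjusted p under 0.05 and 8 did not overlap, where 9.12% and 10.7% of all genes did so with a lower level. Such a p was found for 0 of 7 T cell, 2 of 5 neutrophil and 0 of 10 hepatocyte markers, and for 3 of 5 red blood cell markers, all fitted higher. The part of these other cells in the lower Cd22 was not tested.

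**Figure D4:**
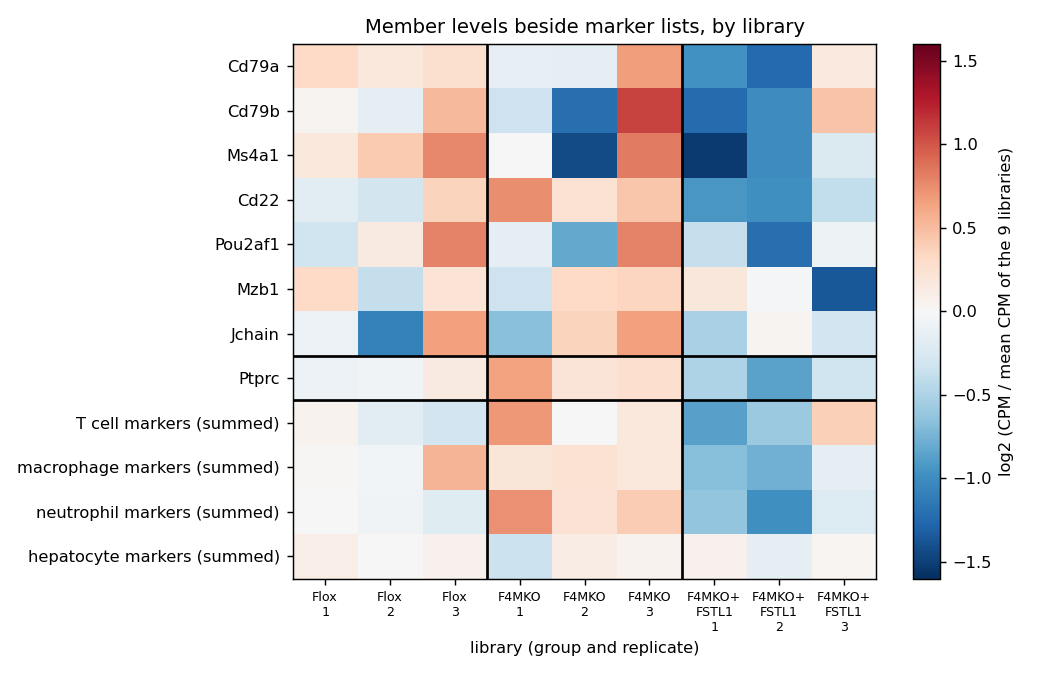
Level of each member, of Ptprc and of summed marker lists in each library, coloured by the log2 of CPM over the mean of the 9 libraries (blue below, red above). F4MKO + FSTL1 replicates 1 and 2 are below the mean for Cd79a, Cd79b, Ms4a1 and Cd22 and for the T cell, macrophage and neutrophil sums, while replicate 3 is nearer to or above it.

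The genes whose profiles were most like the mean of the 4 receptor and surface members, over the 9 libraries, were Ldhb (Pearson r = 0.954), Klhdc8a (0.948), Slc9a9 (0.944), Rhoh (0.940) and Irf7 (0.937). Rhoh encodes a small GTPase of blood cells, Ldhb a lactate dehydrogenase subunit and Irf7 an interferon-induced factor. Those most like Jchain, Mzb1 and Pou2af1 were Bnc1 (0.911), Ubald2 (0.907), Klhl25 (0.894), Mfng (0.868) and Arid3a (0.866), of which Arid3a is a B cell factor that acts on antibody genes. Within the second set Pou2af1 itself varied more like Ms4a1 (r = 0.852), Cd79b (0.846) and Cd79a (0.763) than like Jchain (0.265) or Mzb1 (0.034), so the mean of that set joins unlike profiles. In the first set Cd22 varied less like Cd79b (0.480), Ms4a1 (0.558) and Cd79a (0.691) than these did like each other (0.807 to 0.901). The mean and the summed level of that set therefore also join profiles that differ. All these values describe 9 libraries that include the group differences.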

How the data were processed

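Liver RNA was sequenced as 150 bp paired-end reads on BGIseq500. According to the submitters' processing notes and the study's methods, the authors trimmed reads with Trim Galore 0.6.7, mapped them to mm10 with HISAT2 2.2.1 and deposited raw gene counts from featureCounts 2.0.1. The gene annotation, the use of strand and the treatment of reads mapping to several genes are not given in the sources used here. Ms4a1 is spanned by an antisense gene, 4930526L06Rik, with 0 to 1 counts, and Mzb1 lies within another annotated gene on the same strand (2100 bases shared), so its counts are uncertain. Pou2af1 also holds an annotated same-strand intronic gene, Gm47828 (3789 bases shared). Antisense reads cannot be told apart for Cd22, where a non-coding gene overlaps 601 bases.

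The count test was run with edgeR 4.0.16 (R 4.3.3). Its filterByExpr (minimum count 10, minimum total 15, or 0.432 CPM in the median library) left 14379 genes, TMM factors ran from 0.927 to 1.17, and all 9 libraries entered one quasi-likelihood fit without a block. A gene was called at a Benjamini-Hochberg adjusted p under 0.05 and a fold change above 1.5. TPM used GENCODE vM21 exon lengths, found for 19335 listed genes (80.5%), which held 90.8 to 92.4% of counts. Intervals of counts are exact Poisson at 95%. Profiles used log2 CPM with a prior count of 2. Correlations between pairs of members instead used the log2 of CPM plus a small constant. Totals of 20656976 to 24322984 per library, with 4 to 152 counts for a member, limit precision. No pair of libraries held identical counts. Where separate animals are not stated by the labels, p-values measure only the spread between these libraries.

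Genes were grouped by symbol. The named genes are the members, Irf4, Pax5, Cd3e, Ptprc, up to 3 called genes of each list with the smallest adjusted p (or the 2 largest changes where none was called) and the 5 genes most like each set of members. Genes named in addition, where a list had few calls or a value bore on a member (Tnfrsf17, Xbp1), were chosen after their values were seen. The same holds for genes named because they went against most of their list (Bcl6, Bach2, Foxo1, Cxcl13, Cxcl12, Timd4, Marco). It also holds for Clec4f and Vsig4, named because they were fitted lower and not called. Some genes that the rule names are not reported here. The members and lists were chosen with earlier results of these data known. Alternatives were no filter on counts, DESeq2 1.42.0, edgeR with the size factors of DESeq2, a fit to just the 6 libraries compared, a replicate block, no fold-change threshold, each library left out in turn, and, added after seeing the data, replicates 1 and 2 alone.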

Additional observations from a re-analysis of the deposited data

How the results depend on the processing

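With 4 to 152 counts for a member in a library, differences near 1.5-fold were below what most members could show. Member calls held in number under DESeq2, DESeq2's size factors, no filter, the 6 libraries compared, the replicate block and no fold-change threshold: 0, 1 and 0 of 7 in F4MKO against Flox, F4MKO + FSTL1 against F4MKO and F4MKO + FSTL1 against Flox. With 1 library left out the second count ran from 1 to 2 (2 without F4MKO + FSTL1 replicate 3, when Cd79a joined Cd22) and the others stayed at 0. The count of all genes called moved more. In F4MKO against Flox (39) it was 338 with DESeq2, 478 without the filter, 134 with the replicate block, 11 with 6 libraries, 3 with replicates 1 and 2 alone, and 0 to 100 with 1 library left out. In F4MKO + FSTL1 against Flox (1) it was 284, 379, 15, 0 and 21 under the same settings, 2 with DESeq2's size factors, and 0 to 101 with 1 library left out; at 0 with 6 libraries, 1843 genes were under 0.05 by edgeR's unadjusted p. In F4MKO + FSTL1 against F4MKO (2070) it was 1295 to 2216 with 1 library left out, the lowest without F4MKO + FSTL1 replicate 2 and 1335 without F4MKO replicate 1, and 3001 without the fold-change threshold. The cause of these moves was not tested.

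Reversed signs were confined to uncalled members, under the alternatives run. In F4MKO against Flox, leaving out 1 library took Cd79a between -0.39 and 0.076 (0.076 without F4MKO replicate 1, 0.072 without replicate 2), Cd79b between -0.85 and 0.37 (0.21 without Flox replicate 3, 0.20 without F4MKO replicate 1), Pou2af1 between -0.70 and 0.16 (0.11 without F4MKO replicate 2), Mzb1 between -0.14 and 0.26 (-0.045 and -0.059 without F4MKO replicates 2 and 3) and Jchain between -0.12 and 0.72 (-0.066 without F4MKO replicate 3), and with 6 libraries Cd79b was at 0.003. In F4MKO + FSTL1 against F4MKO, Cd79b ran from -1.26 to 0.28. In F4MKO + FSTL1 against Flox, Jchain ran from -0.56 to 0.27 and Mzb1 from -0.59 to 0.017. With replicates 1 and 2 alone, a choice made after seeing the data, Mzb1 was at 0.07 against F4MKO and 0.10 against Flox, and Jchain at 0.32 against Flox.

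Replicate numbers are shared by the groups, and the labels state no pairing, so the main fit used no block. The deviations of same-numbered libraries correlated at 0.082, 0.042 and 0.169 in F4MKO against Flox. They correlated at 0.111, 0.092 and 0.304 in F4MKO + FSTL1 against F4MKO, and at 0.001, -0.099 and 0.206 in F4MKO + FSTL1 against Flox. Whether same-numbered libraries share more than a number was not tested. In the second comparison each library correlated best with its own number. In the first the same held except for Flox replicate 2, at 0.042 with F4MKO replicate 2 and 0.050 with F4MKO replicate 1. In the third it held only for the libraries of replicate 3. With the replicate block Cd22 was at -1.25 (adjusted p = 0.00422) in F4MKO + FSTL1 against F4MKO, and all genes called were 134, 2170 and 15 in the 3 comparisons.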
